A study of Danio rerio with 2 samples.

Results

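The Nr2f and Ebf genes examined here were the rows named nr2f1a, nr2f1b, nr2f2, nr2f5 and ebf1b, which are 5 of 25432 gene rows. They were found by symbol from a list of 6 symbols, and the symbol ebf1a had no row. A pair of rows carries the symbol ebf3a. One of them, ENSDARG00000099849, is paired with the name EBF1 in the gene name table, and it is described beside ebf1b under its identifier and is not counted as a member. The members were selected on UMI values of these same libraries with earlier results known, and which values decided is not recorded, so their levels, joint detection and library differences are given as a description without a test.

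The study profiled single cells of the adult zebrafish brain that use the gpr85 locus, which encodes an orphan G-protein-coupled receptor. Its design sets a control against a gpr85 knockout. The control carried Gal4 at 1 gpr85 allele (gpr85Gal4/+) and the knockout at both (gpr85GAL4/GAL4), so the knock-in was shared by both groups. Brains were dissociated with papain, live eGFP+ cells were sorted, 50000 per condition, and droplet libraries were made from the 3 prime ends of polyadenylated RNA. There was 1 library per genotype, and the labels do not say how many fish went into each. Every difference below is therefore one between 2 libraries, in which genotype, fish, sort and library preparation cannot be told apart.

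Nr2f proteins, also called COUP-TFs, are orphan nuclear receptors that bind DNA as dimers and often act as repressors. In the mouse brain NR2F1 and NR2F2 are known for patterning cortical areas and for their roles in migrating interneurons, and nr2f5 is a member of the family kept in fish. Ebf proteins are helix-loop-helix transcription factors known from B-cell and olfactory neuron development and from the differentiation and migration of neurons. Cerebellar granule cells are the small glutamatergic neurons of the cerebellum. They arise from the rhombic lip and are marked by genes such as neurod1 and the zic family.

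Cells were barcodes that held 1000 UMIs or more (unique molecular identifiers, each a counted RNA molecule), 500 genes or more and no more than 15% mitochondrial UMIs. They numbered 4091 in the control, holding 13754829 UMIs, and 3231 in the knockout library, holding 11215916 UMIs. The libraries shared 8 barcodes among these cells. Cells were gated by the number of marker genes of a class with a UMI. The granule gate held 3621 control cells (88.5%) with a median of 2484 UMIs and 2923 knockout cells (90.5%) with a median of 2758 UMIs. Of 19 granule markers in the files, 17 were seen in at least 10% of the granule-gated cells of each library. The summed level of those markers was 11820 CPM (UMIs of the genes as a share of all UMIs of the class, in the usual counts-per-million scale) in control cells and 12160 CPM in the knockout library. In granule-gated cells gpr85 stood at 155.7 CPM in control cells and 112 CPM in the knockout library, a log2 ratio of knockout over control of -0.48 (95% interval -0.59 to -0.36). The labels do not say which part of gpr85 the knock-in removes, so UMIs of its 3 prime end do not check the genotype. The added sequence H2B-mGL moved the other way, with a log2 ratio of 1.08 (1.07 to 1.09). All intervals here cover counting error only, and they treat the UMIs of a cell as independent.

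A group of 3 of the 5 members were detected in enough granule-gated cells to be described across cell populations, namely nr2f1a, nr2f2 and ebf1b. Each was seen in a minority of these cells. In the control, nr2f1a had 293 UMIs in 231 cells (6.38%, 5.61 to 7.22) and nr2f2 had 296 UMIs in 198 cells (5.47%, 4.75 to 6.26). In the knockout library nr2f1a had 376 UMIs in 243 cells (8.31%, 7.34 to 9.37) and nr2f2 had 352 UMIs in 186 cells (6.36%, 5.51 to 7.31). The Ebf member ebf1b was seen more widely, with 1553 UMIs in 634 control cells (17.5%, 16.3 to 18.8) and 1881 UMIs in 624 knockout cells (21.4%, 19.9 to 22.9). When each cell was thinned to 1000 UMIs, nr2f1a was left in 2.43% of control and 3.22% of knockout cells. The thinned shares of nr2f2 were 2.32% and 2.87%, and those of ebf1b were 9.0% and 12%.

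The other two members were close to the counting limit. For nr2f1b, a second copy of NR2F1 in zebrafish, 3 UMIs in 3 control cells and 22 UMIs in 15 knockout cells were counted. For nr2f5 the counts were 9 UMIs in 9 control cells and 3 UMIs in 3 knockout cells. The log2 ratio was 3.08 (1.34 to 5.46) for nr2f1b and -1.38 (-3.90 to 0.62) for nr2f5. Of the 22 knockout UMIs of nr2f1b, 4 came from 1 cell. The nr2f1b ratio was 1.63 (-0.98 to 5.02) with each cell thinned to 1000 UMIs, 4.08 with cell types from joint clustering and 4.14 under a stricter gate, so its size is poorly fixed and the thinned interval includes 0. The interval of nr2f5 included 0, so no difference was detectable at this depth.

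Microglia-gated cells, which are not known to use these genes, served as a measure of stray RNA. They were 15 control cells with a median of 4385 UMIs and 17 knockout cells with a median of 9580 UMIs, deeper than the granule-gated cells. No nr2f1a UMI was seen in either set, which allows shares of up to 21.8% and 19.5%. The gene nr2f2 had 1 UMI in each of 2 control and 3 knockout cells (13.3% and 17.6%), and ebf1b had 1 UMI in 1 cell of each library (6.67% and 5.88%). The microglia level of nr2f2 was 21.7 CPM (2.63 to 78.3) in control cells and 19.4 CPM (3.99 to 56.6) in the knockout library, and these intervals hold its granule level. For nr2f1a the 0 UMIs allow up to 40.0 CPM in the control microglia, above its control granule level of 28.9 CPM, and up to 23.8 CPM in the knockout microglia. These sets of microglia are too small to place the pooled granule levels of nr2f2, or that of nr2f1a in the control, above or below a background. A lower level of nr2f2 was measured inside the granule gate, where clusters 2, 3 and 5, described below, stood between 1.56 and 5.10 CPM with upper limits of at most 12.9 CPM. These clusters were named with their nr2f2 values known, so they do not set a background for it. For ebf1b the microglia level was 10.8 CPM (0.27 to 60.4) and 6.46 CPM (0.16 to 36.0), below its granule level. The free RNA share of granule-gated cells was estimated at 4.73% of UMIs in control cells and 5.03% in the knockout library. At that share free RNA could give nr2f1a 1.39 and 1.79 CPM, nr2f2 1.86 and 2.55 CPM, and ebf1b 6.0 and 8.42 CPM. The nr2f2 level of cluster 5, 1.56 and 3.58 CPM from 2 UMIs in each library, was close to that.

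Levels differed between the marker-gated cell types with 20 cells or more per library. In granule-gated cells nr2f1a stood at 28.9 CPM (25.7 to 32.4) in control cells and 42.7 CPM (38.5 to 47.3) in the knockout library. In the glutamatergic-gated cells, 251 in control cells and 102 in the knockout library, it was at 10.2 CPM (6.32 to 15.6) and 27.0 CPM (17.3 to 40.2). In the GABAergic-gated cells, 66 and 26 in number, it was at 27.4 CPM (17.0 to 41.9) and 22.8 CPM (9.16 to 47.0). Habenula-gated cells had the lowest level, with 0 UMIs in 30 control cells, which allows up to 10.45 CPM, and 3 UMIs in 90 knockout cells (3.84 CPM). The 2 highest cells held 57.1% of 21 and 85.7% of 7 nr2f1a UMIs in the GABAergic-gated cells, and 52.4% of 21 and 54.2% of 24 in the glutamatergic-gated cells. The granule and GABAergic levels did not differ beyond counting error in the control. The granule, glutamatergic and GABAergic intervals of the knockout library overlapped.

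For nr2f2 the highest level was in GABAergic-gated cells. It was 84.9 CPM (65.5 to 108) there in control cells and 254 CPM (201 to 317) in the knockout library, against 29.2 CPM (26.0 to 32.7) and 40.0 CPM (35.9 to 44.4) in granule-gated cells. Those GABAergic sums rested on few cells. The 2 highest cells held 63.1% of 65 UMIs in control cells and 98.7% of 78 UMIs in the knockout library. Glutamatergic-gated cells, at 25.3 CPM (18.9 to 33.2) and 29.3 CPM (19.1 to 42.9), overlapped the granule level in each library. Habenula-gated cells held 0 and 1 UMIs.

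The order was different for ebf1b, whose highest level was in glutamatergic-gated cells. There it reached 354 CPM (328 to 380) in the control, from 144 of 251 cells, and 268 CPM (235 to 304) in the knockout library, from 39 of 102 cells. Granule-gated cells followed at 153 CPM (146 to 161) and 214 CPM (204 to 224). In the control the GABAergic level was 104 CPM (82.8 to 130.0) and the habenula level 28.3 CPM (13.6 to 52.1). In the knockout library the last 2 changed places, with 64.0 CPM (47.5 to 84.4) in habenula-gated and 32.6 CPM (15.6 to 59.9) in GABAergic-gated cells, and their intervals overlapped. In the knockout habenula-gated cells 30 of the 50 UMIs came from 1 cell. The granule gate divided cluster 8, a cluster high in ebf1b that is described below. Over all its cells cluster 8 held 971 control and 334 knockout ebf1b UMIs, of which 312 and 123 were in granule-gated cells. Its part in the glutamatergic level was not tested. Cluster 11, led by uts1 and also mostly outside the granule gate, had 30.2 and 26.1 CPM. Glutamatergic-gated cells had a median of 11 and 9.5 granule markers, against 9 and 10 in granule-gated cells.

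**Figure D1:**
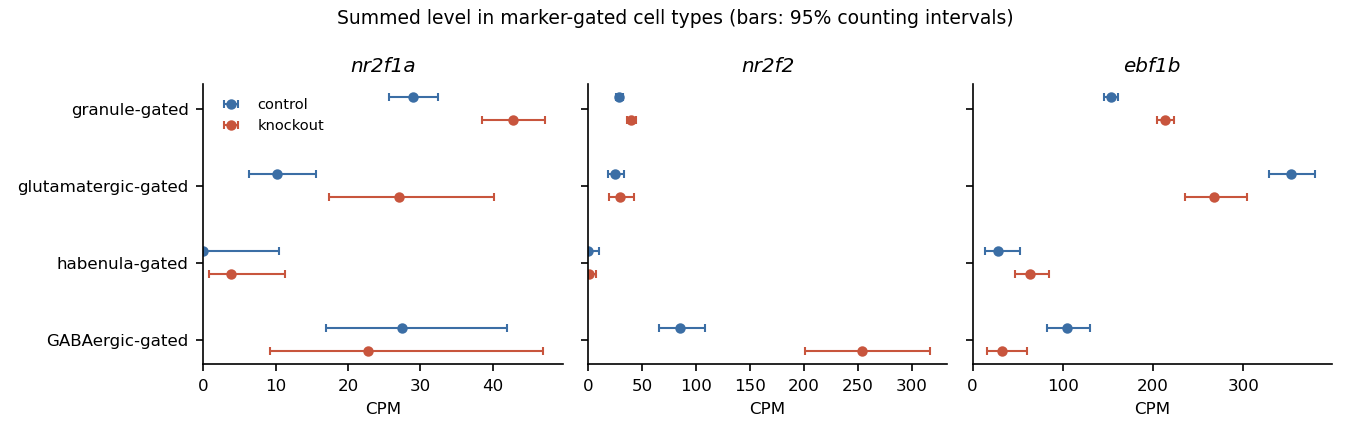
Summed level in CPM (horizontal axis) of nr2f1a, nr2f2 and ebf1b in the 4 marker-gated cell types with at least 20 cells in each library. Points are the libraries and bars are 95% counting intervals. ebf1b is highest in glutamatergic-gated cells and nr2f2 in GABAergic-gated cells, while nr2f1a in granule-gated cells stands at 28.9 CPM in control cells and 42.7 CPM in the knockout library.

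Granule-gated cells were not uniform in any of these genes. Both libraries were clustered together without any Nr2f or Ebf gene, which gave 16 clusters, and 9 of them held at least 20 granule-gated cells in each library. The clusters are called by their numbers and leading genes, since the names of granule cell subtypes were not given. For nr2f1a, nr2f2 and ebf1b the highest cluster was at least 4-fold above the median cluster in both libraries. The same was true of 277 of the 9168 genes with enough UMIs for this comparison (3.02%). The log2 difference was 3.56 in control cells and 3.64 in the knockout library for nr2f1a, 3.44 and 2.63 for nr2f2, and 2.99 and 2.68 for ebf1b. The related nr2f6a spread far less, at 0.71 and 0.67.

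The Nr2f pair was high in 3 clusters. The leading genes of cluster 6 included gsg1l and lmx1al, those of cluster 7 KCNK12, hyal4 and thbs4a, and those of cluster 9 matn4, UNC5C and sorcs3b. In cluster 6, nr2f1a was at 114 CPM (97.4 to 133) in control cells and 97.4 CPM (72.8 to 128) in the knockout library. In cluster 7 it was at 78.4 CPM (55.2 to 108) and 108 CPM (89.8 to 129), and in cluster 9 at 49.9 CPM (18.3 to 109) and 149.8 CPM (125 to 178). Cluster 4, led by activity-dependent genes such as egr4 and npas4a, came next at 21.1 and 23.5 CPM. In clusters 1, 2, 3 and 5 nr2f1a lay between 1.56 and 8.74 CPM. The lowest of these, cluster 5 with 1.56 CPM in control cells and 1.79 CPM in the knockout library, rested on 2 and 1 UMIs and was close to the level that free RNA could give.

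The same 3 clusters were highest for nr2f2. It reached 114 CPM (97.4 to 133) in control cells and 184 CPM (149 to 224) in the knockout library in cluster 6, 69.9 CPM (48.1 to 98.2) and 79.4 CPM (64.0 to 97.4) in cluster 7, and 116.5 CPM (63.7 to 195.5) and 85.9 CPM (67.5 to 108) in cluster 9. These 3 neighbours overlapped in the control, while in the knockout library cluster 6 stood above the other two beyond counting error. The lowest levels were 1.56 CPM in control cells of cluster 5 and 3.02 CPM in knockout cells of cluster 1. Across the 9 clusters the ranks of nr2f1a and nr2f2 went together, with a Spearman coefficient of 0.92 in control cells and 0.90 in the knockout library. These are descriptions over 9 clusters that share a library, depth and clustering.

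The levels of ebf1b followed another order. Cluster 9 was highest, at 932 CPM (768 to 1122) in control cells and 867 CPM (806 to 932) in the knockout library, with a UMI in 86.8% of 38 and 80.8% of 214 cells. Cluster 8, led by the neuropeptide gene galn and by cbln2a, had 735 CPM (656 to 821) and 681 CPM (566 to 813). Only 43.3% of the cells of cluster 8 passed the granule gate, 96 in control cells and 42 in the knockout library. For nr2f1a, cluster 8 had 0 UMIs in control cells, the lowest of the 9 clusters. Its knockout cells held 2 UMIs, which gave 11.1 CPM (1.34 to 40.0). Its leading genes held galn, a marker of other glutamatergic neurons. Clusters 1, 3, 4, 6 and 7 were intermediate, between 86.2 and 277 CPM. Cluster 2, led by SYT2 and spon1a, had 26.2 and 9.27 CPM, and cluster 5, led by pax2a, en2a and sox11a, had 10.2 and 7.16 CPM. Against nr2f1a the Spearman coefficient of ebf1b over the clusters was 0.32 in control cells and 0.53 in the knockout library.

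**Figure D2:**
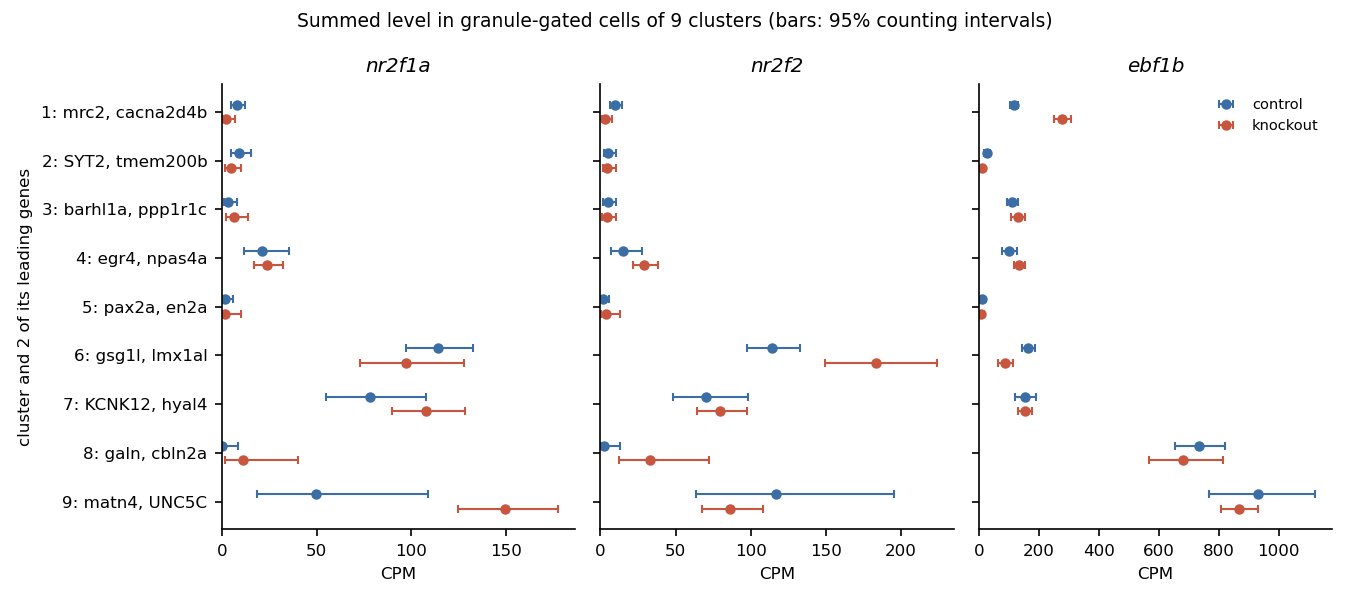
Summed level in CPM (horizontal axis) of nr2f1a, nr2f2 and ebf1b in the granule-gated cells of 9 clusters, each named by number and 2 of its leading genes. Points are the libraries and bars are 95% counting intervals. The Nr2f genes are high in clusters 6, 7 and 9 and ebf1b in clusters 8 and 9, and all 3 are low in cluster 5.

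The row ENSDARG00000099849 was seen in 176 control (4.86%) and 117 knockout granule-gated cells (4.0%). It was highest in cluster 8, at 186 CPM (147 to 232) in control cells and 255 CPM (187 to 340) in the knockout library. In cluster 9, where ebf1b was highest, it was at 25 CPM (5.15 to 73.0) and 9.29 CPM (4.01 to 18.3). Its other cluster levels lay between 6.18 and 31.8 CPM. Its ranks over the clusters went with those of ebf1b at 0.68 and 0.65.

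Joint detection in single cells was examined next, since genes that share clusters may or may not share cells. Both nr2f1a and nr2f2 had a UMI in 51 control and 47 knockout granule-gated cells. Within 5 bins of depth the separate shares give 17.2 and 25.9 such cells. The observed number was thus 2.96 times (2.2 to 3.89) that from the shares in control cells and 1.82 times (1.34 to 2.42) in the knockout library. When the shares were taken within depth bins of each cluster, the ratio was 1.17 (0.87 to 1.54) and 1.02 (0.75 to 1.36). Within clusters, then, joint detection of the pair did not exceed the separate shares beyond counting error.

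With each cell thinned to 1000 UMIs the ratio of nr2f1a and nr2f2 was 3.92 (1.69 to 7.72) in the control and 1.85 (0.60 to 4.32) in knockout cells.

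Pairs of an Nr2f gene with ebf1b were counted in the same way. For nr2f1a and ebf1b, 64 control and 87 knockout cells had both, 1.27 times (0.98 to 1.62) and 1.22 times (0.98 to 1.51) the number from the shares. For nr2f2 and ebf1b the numbers were 53 and 67 cells, at 1.22 (0.91 to 1.59) and 1.27 (0.98 to 1.61). All of these intervals include 1. With each cell thinned to 1000 UMIs the ratio of nr2f1a and ebf1b was 1.39 (0.69 to 2.48) in the control, from 11 cells with both, and 2.03 (1.29 to 3.05) in the knockout library, from 23 cells. That of nr2f2 and ebf1b was 1.98 (1.11 to 3.27) and 1.88 (1.13 to 2.93), from 15 and 19 cells. Of these thinned intervals the one of nr2f1a in the control includes 1. Differences between the pairs were not tested. Within clusters the ratios were 1.00 and 0.94 for nr2f1a and 0.91 and 1.08 for nr2f2. The detection of ebf1b was nonetheless higher in cells with both Nr2f genes (29.4% in control cells and 40.4% in the knockout library) than in cells with neither (16.4% and 19.2%). The former were deeper, with median UMIs of 3451 and 4536 against 2418 and 2661, and the part of depth in this difference was not tested. All 3 genes were seen in 15 control and 19 knockout cells, and none of the 3 in 2711 and 2052 cells.

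Joint detection of ebf1b and ENSDARG00000099849 was also above the separate shares. Both were seen in 92 control and 55 knockout cells, 2.46 times (1.98 to 3.02) and 1.83 times (1.38 to 2.38) the number from the shares. Within clusters the ratio was 1.1 (0.88 to 1.34) in control cells and 1.34 (1.01 to 1.75) in the knockout library. Among 15 pairs of the followed rows, one other stood out by its count. In the knockout library 9 of the 15 cells with nr2f1b also had nr2f2, 5.06 times (2.32 to 9.61) the number from the shares. Within clusters this ratio was 4.27 (1.95 to 8.1). The pair was named after its value was seen, and nr2f1b is close to the counting limit.

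**Figure D3:**
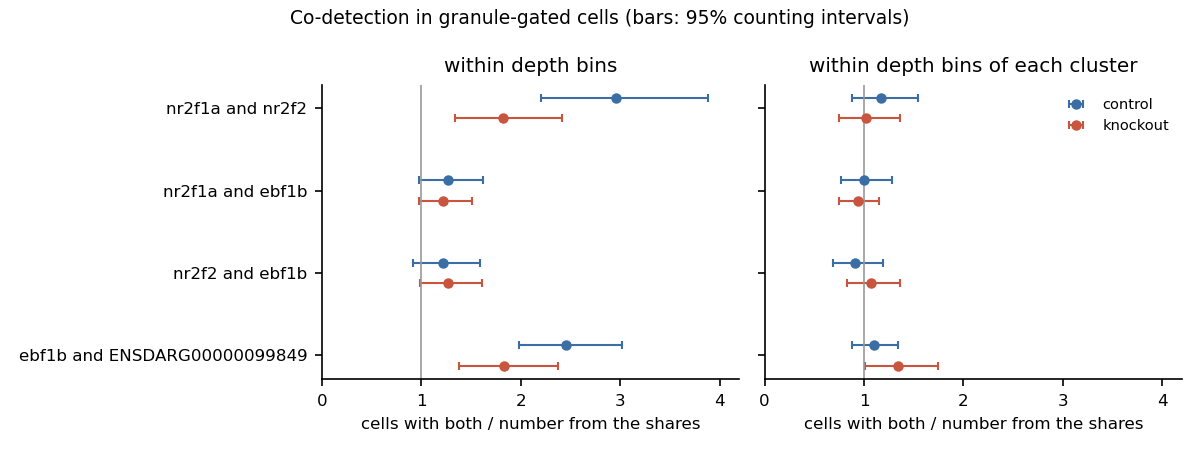
Cells with a UMI of both genes divided by the number that their separate shares give (horizontal axis), for 4 pairs in granule-gated cells. Shares are taken within depth bins on the left and within depth bins of each cluster on the right, and bars are 95% counting intervals. For nr2f1a and nr2f2 the ratio is 2.96 and 1.82 on the left and 1.17 and 1.02 on the right.

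The genes most like each member were ranked by their level in granule-gated cells with a UMI of the member over cells without one, taking the weaker of the libraries. Cells were not compared within clusters or within bins of depth here, so these differences include those between clusters. The part of depth in them was not tested. Over 9165 genes, 68 were at least 2-fold higher in both libraries in cells with nr2f1a (0.742%) and 73 at least 2-fold lower (0.797%). The 5 highest were esrrga, an estrogen-related orphan nuclear receptor, the kinase gene CDK18, the kinesin gene kif26ab, the collagen gene col27a1b and the synaptic organizer cbln2b. Between cells with and without nr2f1a, esrrga stood at 178 and 47.8 CPM in control cells and at 153 and 37.4 CPM in the knockout library. The 2 lowest were hs3st4, a heparan sulfate sulfotransferase gene, and en2a, an engrailed gene. Both were among the leading genes of a cluster with few nr2f1a UMIs. For hs3st4 this was cluster 8, with 0 and 2 nr2f1a UMIs and 1256 and 312 hs3st4 UMIs in its granule-gated cells. For en2a it was cluster 5, with 2 and 1 nr2f1a UMIs. Cells with nr2f1a had en2a at 17.3 CPM in the control, against 89.8 CPM in cells without it. Knockout cells had 8.55 and 67.3 CPM.

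For nr2f2 the 5 highest were the tachykinin gene tac1, the potassium channel genes KCNB2 and kcnh8, dact2 and baiap2l1b, among 89 genes at least 2-fold higher (0.971%). In cells with nr2f2, tac1 stood at 225 CPM in control cells and 80.6 CPM in the knockout library, against 40.1 and 7.85 CPM in cells without it. Both tac1 and kcnh8 were also among the leading genes of cluster 6. The 2 lowest were the engrailed genes en1a and en2a, among 67 genes at least 2-fold lower (0.731%). With nr2f2, en1a was at 1.36 and 1.30 CPM, against 18.4 and 15.4 CPM without it. Each of the levels with nr2f2 rested on fewer than 3 UMIs, so the size of this difference is poorly fixed.

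For ebf1b, 75 genes were at least 2-fold higher (0.818%) and 20 at least 2-fold lower (0.218%). The highest were hs6st1a and hs6st1b, which encode heparan sulfate 6-O-sulfotransferases, the extracellular matrix gene edil3a, the formin gene daam1b and ENSDARG00000099849. The level of hs6st1a was 213 CPM with and 20.1 CPM without ebf1b in the control, and 94.6 and 18.6 CPM in the knockout library. ENSDARG00000099849 stood at 84.1 and 12.8 CPM in control cells and at 47.1 and 11.5 CPM in the knockout library. The 2 lowest were again en1a and en2a. With ebf1b, en1a was at 3.15 and 2.62 CPM, against 21.1 and 18.3 CPM without it.

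A list of 69 transcription factor symbols of granule cells and of brain regions was then read in the same way. Of its rows, 37 had at least 100 UMIs in each library. Cells with nr2f1a had 3 of the 37 at least 2-fold higher in both libraries and 7 at least 2-fold lower, against 0.742% and 0.797% of all genes. The counts were 5 and 7 for nr2f2, against 0.971% and 0.731% of all genes, and 2 and 7 for ebf1b, against 0.818% and 0.218%. The genes with the most UMIs in the list moved little. The log2 difference between cells with and without nr2f1a was 0.24 and 0.19 for neurod1, -0.13 and -0.10 for zic1, 0.24 and -0.02 for etv1, and 0.53 and 0.24 for zic2a. Of these, neurod1, zic1 and zic2a were markers of the granule gate.

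Several genes of this list, named after their values were seen, differed in the same direction between cells with and without either Nr2f gene. These contrasts were not taken within clusters or bins of depth, and both Nr2f genes were high in the same clusters. Cluster 6, with lmx1al among its leading genes, held 56.7% of the nr2f1a and 56.1% of the nr2f2 UMIs in the control. Cluster 5, with pax2a, en2a and en1a among its leading genes, held 0.68% of the control UMIs of each. In cells with nr2f1a, the log2 difference was 2.07 in control cells and 1.27 in the knockout library for lmx1al, 2.06 and 1.17 for eomesa, and 2.07 and 1.42 for zic2b. With nr2f2 it was 2.05 and 2.36 for lmx1al, 1.96 and 2.73 for eomesa, and 2.1 and 2.39 for zic2b. The gene eomesa was also a marker of the glutamatergic gate, which removed cells from the granule gate. Its other copy, eomesb, was a marker of that gate too. The level of eomesb was lower, at -1.78 and -2.68 with nr2f1a and at -1.70 and -1.63 with nr2f2. In the mouse, Lmx1a acts in the rhombic lip. With ebf1b the difference of lmx1al, eomesa and zic2b lay between -0.21 and 0.49. The genes at least 2-fold higher with ebf1b in both libraries were the otx genes otx2b, at 1.09 and 1.15, and otx1, at 1.60 and 2.42. They were not particular to ebf1b. With nr2f1a, otx2b was at 1.53 and 0.47 and otx1 at 1.17 and 0.64. With nr2f2, otx2b was at 1.49 and 0.88 and otx1 at 0.88 and 1.15. Lower with nr2f1a were all 4 engrailed genes of the list and pax2a, which act at the midbrain-hindbrain boundary in development, with log2 differences between -3.43 and -1.41.

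**Figure D4:**
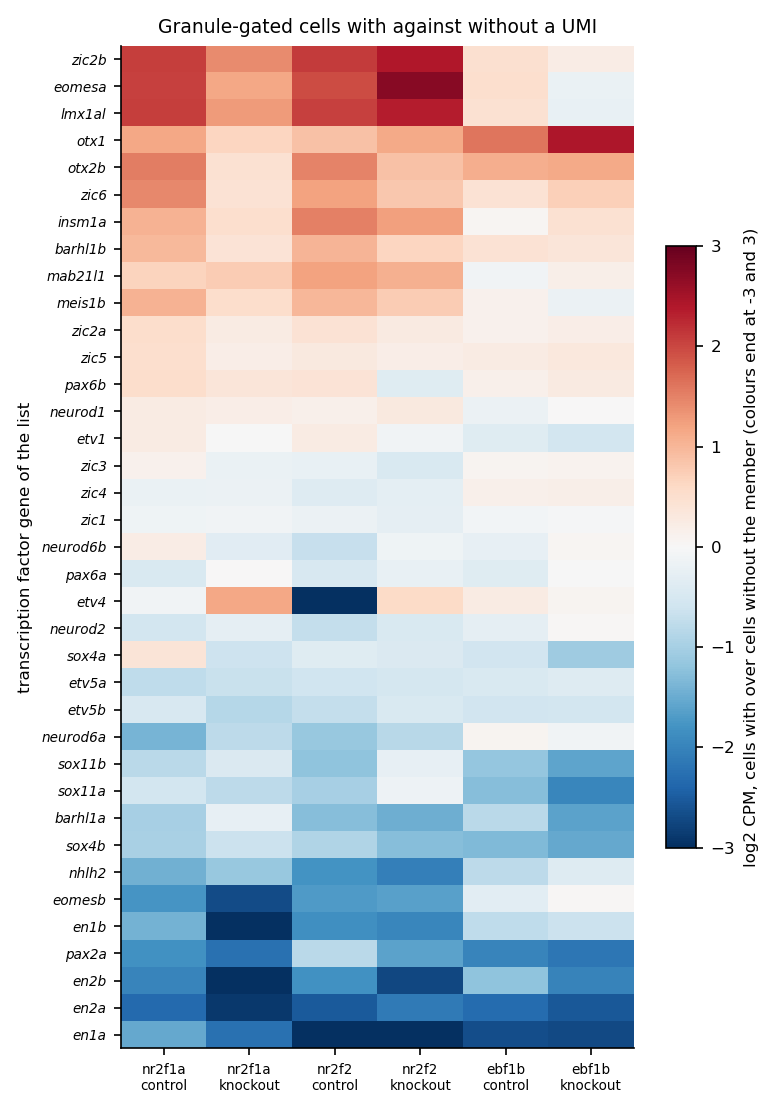
Log2 difference in level (colour) between granule-gated cells with and without a UMI of nr2f1a, nr2f2 or ebf1b, in each library (columns), for the 37 transcription factor genes of the list with at least 100 UMIs in each library (rows, sorted by their mean). zic2b, eomesa and lmx1al are higher with both Nr2f genes and the 4 engrailed genes lower with all 3 members, while etv4 differs in sign between the libraries for both Nr2f genes.

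Over all granule-gated cells the 3 members that could be followed were each higher in the knockout library. The log2 ratio was 0.56 (0.34 to 0.79) for nr2f1a, 0.45 (0.23 to 0.68) for nr2f2 and 0.48 (0.38 to 0.58) for ebf1b. None of the 3 was past 2-fold. Of 11612 genes with at least 100 UMIs, 369 were past 2-fold (3.18%), 137 of them higher (1.18%) and 232 lower (2.0%) in the knockout library. The median gene stood at -0.03, and the middle 95% of genes between -0.92 and 0.72, a range that holds all 3 members. ENSDARG00000099849 was lower in the knockout library, at -0.45 (-0.73 to -0.18), from 288 and 183 UMIs. This difference was not detectable in several other settings, with -0.10 (-0.44 to 0.24) for cell types from joint clustering, -0.07 (-0.41 to 0.26) without clusters 8 and 10, and -0.31 (-0.83 to 0.20) after thinning. Averaged over clusters, ENSDARG00000099849 was at 0.12.

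The composition of the granule-gated cells also differed between the libraries. Cluster 9, high in both nr2f1a and ebf1b, held 38 control cells (1.05%) and 214 knockout cells (7.32%). Cluster 7 held 4.56% and 11.8% of the cells and cluster 6 held 14.3% and 5.10%. Cluster 4 went from 6.93% in control cells to 20.05% in the knockout library, and cluster 5, low in all 3 members, from 15.9% to 7.87%. In the control 56.7% of the nr2f1a UMIs came from cluster 6 and 2.05% from cluster 9, and in the knockout library 13.8% and 34.3%. Of the ebf1b UMIs, 7.21% in control cells and 39.7% in the knockout library came from cluster 9. Without cluster 9, a setting chosen after seeing the data, the log2 ratio of ebf1b was -0.01 (-0.12 to 0.10). That of nr2f1a was 0.12 (-0.13 to 0.37), so neither difference was detectable in the other cells together. For nr2f2 the ratio was 0.31 (0.07 to 0.56) without cluster 9. Cluster 9 was highest in ebf1b and larger in the knockout library, so leaving it out had to lower the ebf1b ratio. It was also above the level of all granule-gated cells in nr2f1a and nr2f2 in both libraries. Leaving it out thus had to lower their ratios too. Without clusters 8 and 10, also chosen after seeing the data, the ebf1b ratio was 0.76 (0.65 to 0.87). Those clusters were high in ebf1b in the control and smaller in the knockout library. Cluster 8 held 20.1% of the control and 6.54% of the knockout ebf1b UMIs, and cluster 10 had 73 and 2 UMIs. Leaving them out therefore had to raise the ebf1b ratio. The part of cluster shares in these differences was not tested. With the level averaged over the 9 clusters, each weighted in both libraries by its share of the pooled UMIs, the log2 ratio was 0.26 for nr2f1a, 0.34 for nr2f2 and 0.20 for ebf1b. Fewer cells of a cluster in the fish and fewer recovered from it cannot be told apart.

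Within clusters the ratios of ebf1b pointed in different directions. In cluster 1, led by mrc2, cacna2d4b and prlhr2a, ebf1b was at 116 CPM (104 to 130.5) in control cells and 277 CPM (249 to 307) in the knockout library, a log2 ratio of 1.25 (1.02 to 1.48). In cluster 6 it was at 165 CPM (145 to 187) and 86.2 CPM (63.1 to 115), a ratio of -0.94 (-1.42 to -0.48). In cluster 2 it was at 26.2 CPM (18.4 to 36.3) and 9.27 CPM (4.79 to 16.2), a ratio of -1.5 (-2.58 to -0.52). This ratio rested on 36 control and 12 knockout UMIs, too few for ebf1b to be among the genes compared in cluster 2. The share past 2-fold given below for cluster 2 therefore does not cover ebf1b. In clusters 8 and 9, where ebf1b was highest, the ratios were -0.11 (-0.42 to 0.20) and -0.10 (-0.39 to 0.20). Of the genes compared within a cluster, 1.8% were past 2-fold in cluster 1, 1.69% in cluster 2, 1.68% in cluster 3, 2.29% in cluster 4, 2.25% in cluster 5, 2.27% in cluster 6, 1.96% in cluster 7, 1.65% in cluster 8 and 4.16% in cluster 9.

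Leading genes of those clusters also differed between the libraries. In cluster 1, mrc2 had a log2 ratio of -1.0 (-1.40 to -0.62) and ENSDARG00000100401 one of -1.32 (-1.61 to -1.05), while cacna2d4b was at 0.14 (-0.04 to 0.32). In cluster 2, mafb was at 1.08 (0.68 to 1.5) and chga at 0.98 (0.85 to 1.1). In cluster 6, gsg1l was at -0.53 (-0.64 to -0.43) and lmx1al at 0.36 (0.24 to 0.48). Their part in the ebf1b differences was not tested.

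For the Nr2f genes, fewer clusters differed beyond counting error. They had fewer granule-gated UMIs, 293 and 376 for nr2f1a and 296 and 352 for nr2f2, against 1553 and 1881 for ebf1b. Their intervals were wider for that reason, so the number of clusters does not show that they differed less than ebf1b. In cluster 6 nr2f2 had a log2 ratio of 0.69 (0.31 to 1.06), from 166 and 98 UMIs, while nr2f1a there was at -0.23 (-0.71 to 0.23), from 166 and 52 UMIs. In cluster 9 nr2f1a was at 1.58 (0.42 to 3.06), but the control side rested on 6 UMIs in 6 cells. In cluster 7 neither gene differed beyond counting error, with 0.46 (-0.08 to 1.03) for nr2f1a and 0.18 (-0.40 to 0.80) for nr2f2. In cluster 1, where both are scarce, the ratios were -1.80 (-4.20 to -0.05) for nr2f1a, from 20 and 3 UMIs, and -1.71 (-3.69 to -0.17) for nr2f2, from 25 and 4 UMIs.

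**Figure D5:**
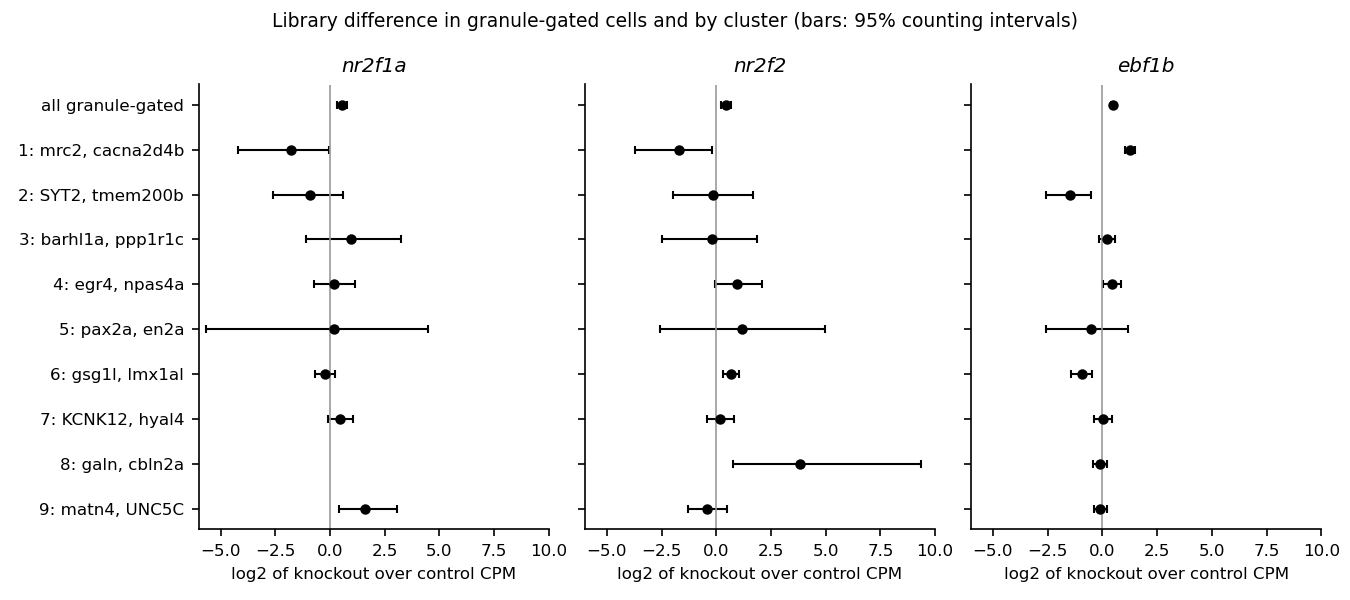
Log2 ratio of knockout over control CPM (horizontal axis) of nr2f1a, nr2f2 and ebf1b over all granule-gated cells and in each of 9 clusters, with 95% counting intervals. nr2f1a in cluster 8 is not drawn because the control had 0 UMIs there. Over all cells the 3 genes lie between 0.45 and 0.56, and ebf1b is at 1.25 in cluster 1 and at -0.94 in cluster 6.

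Other genes of the families and of their pathways were read from lists. Of 6 other Nr2f and Ebf rows, 3 had enough UMIs. None was past 2-fold higher and 1 was lower, against 1.18% and 2.0% of all genes. The lower one was the ebf3a row ENSDARG00000100244, at -1.13 (-1.57 to -0.72). Of its 167 control UMIs, 70 came from 26 cells of cluster 10, against 6 of 66 UMIs from 8 knockout cells, and only 16.35% of the cells of cluster 10 passed the granule gate. Without clusters 8 and 10, a setting added after seeing the data, ENSDARG00000100244 was at -0.42 (-0.93 to 0.08). The others were ENSDARG00000099849, given above, and nr2f6a, at -0.17 (-0.44 to 0.11). The row of ebf2 had only 9 and 4 UMIs. The median of the 3 was -0.45, against -0.03 over all genes.

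Known partners and cofactors of nuclear receptors and Ebf proteins gave 11 rows with enough UMIs of 19 in the files. None was past 2-fold in either direction, against 3.18% of all genes, and their median log2 ratio was -0.01. For 11 rows a count of none is close to that share. Among those with the most UMIs were zfpm2a, a zinc-finger cofactor known to bind NR2F2, at 0.19 (0.14 to 0.24), and the corepressor genes ncor1, at 0.10 (-0.01 to 0.20), and tle3b, at -0.02 (-0.13 to 0.09). In the list of retinoic acid signalling, 8 of 18 rows had enough UMIs, with a median of -0.24. One was past 2-fold higher, aldh1a3, a retinoic acid synthesis enzyme, at 1.68 (1.04 to 2.36). A pair was lower, the binding protein gene crabp1a at -1.15 (-1.44 to -0.87) and the retinaldehyde reductase gene dhrs3b at -1.25 (-1.85 to -0.68). Over all genes 1.18% were past 2-fold higher and 2.0% lower. These short lists were not tested against those shares. The receptor genes with the most UMIs were raraa, at 0.07 (-0.07 to 0.20), rarab, at 0.20 (0.02 to 0.37), and rarga, at -0.23 (-0.42 to -0.05), and the retinol transporter gene stra6 was at -0.93 (-1.19 to -0.67). Cells with any of the 3 members had more raraa. The log2 differences were 1.24 in control cells and 1.1 in the knockout library for nr2f2, 1.16 and 0.89 for nr2f1a, and 0.86 and 1.41 for ebf1b. They were not taken within clusters or bins of depth.

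Of the transcription factor list, 43 of 69 rows had enough UMIs, none was past 2-fold higher and 3 were lower, against 1.18% and 2.0% of all genes, namely sox11b at -1.11 (-1.26 to -0.95), sox4a at -1.26 (-1.47 to -1.06) and eomesa at -1.42 (-1.71 to -1.15). The median was -0.28. The genes with the most UMIs were close to the median of all genes, with neurod1 at -0.05 (-0.08 to -0.02), zic1 at -0.03 (-0.06 to 0.01) and zic2a at -0.04 (-0.08 to 0.00), and etv1 was at 0.26 (0.22 to 0.29). Since neurod1, zic1 and zic2a are markers of the granule gate, their levels are set in part by the selection of cells. The same holds for eomesa, a marker of the glutamatergic gate, which removed cells from the granule gate. Markers of immature neurons summed to 1439 CPM in control cells and 1096 CPM in the knockout granule-gated cells. That list itself includes sox11b and sox4a, so its sum is not separate from their differences, and it does not include eomesa. The part of immature cells in these differences was not tested.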

How the data were processed

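Droplet single-cell libraries of sorted adult zebrafish brain cells were compared, 1 per genotype. The deposited values are whole-number UMI counts per gene and barcode, written by the authors with Cell Ranger 7.1.0, per the file headers and the submitters' processing notes, which also name Seurat and the build GRCz11. The matrices had not been filtered for cells. The libraries held 19368218 UMIs (control) and 17646062 UMIs (knockout). The members, gene lists, gates and tests were chosen with earlier results of these data known.

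Cells were gated in a fixed order by distinct markers and their UMIs: microglia, radial glia, oligodendrocytes, endothelium, GABAergic, habenula and other glutamatergic neurons, then granule cells with at least 4 markers. The gate thresholds were set after the cells had been seen. Clusters came from 2000 variable genes, 30 principal components, 15 neighbours and Leiden clustering at resolution 1 (python-igraph 0.11.9, scanpy 1.11.5), without Nr2f and Ebf genes, gpr85, added sequences or mitochondrial genes. No doublets were removed. In an alternative the highest Scrublet scores, 0.8% per 1000 cells, were left out.

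UMIs were summed per library and class and given in CPM with exact Poisson intervals. Shares have exact Clopper-Pearson intervals and ratios exact conditional binomial intervals, at 95%. Where a limit is given for a count of 0, it is the upper end of the exact interval. Fewer than 3 counts were taken as below the floor. A gene was compared between libraries with at least 100 UMIs, both summed, and past 2-fold was called after adding 0.5 counts. The free RNA profile was taken over barcodes below 100 UMIs. Intervals cover counting error only. Scripts were tested on simulated data with Python 3.11.15, numpy 2.4.6 and scipy 1.17.1.

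Named genes were the members, the 5 highest and 2 lowest genes by level in cells with over cells without a member seen in at least 50 cells per library, and up to 4 genes per list with the most UMIs. Some genes that this rule or a cluster's leading genes would name are not reported here. Sequences of the members are not shown and were not analysed here.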

Additional observations from a re-analysis of the deposited data

Results flagged for a closer look

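The library ratio of a gene pointed in opposite directions in different populations of the same libraries, each beyond counting error, in the cases below. The differences between populations were not tested, since each genotype had 1 library. Values are log2 of knockout over control.

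For ebf1b the ratio in granule-gated cells was 1.25 in cluster 1 and 0.43 in cluster 4, against -1.5 in cluster 2 and -0.94 in cluster 6. Between cell types ebf1b was at 0.48 in granule-gated and 1.18 in habenula-gated cells, against -0.40 in glutamatergic-gated and -1.68 in GABAergic-gated cells. The granule-gated value was -0.01 (-0.12 to 0.10) without cluster 9 and 0.20 averaged over clusters. Over all cells of cluster 8, which the granule gate divided, ebf1b was at -0.04 (-0.23 to 0.14). In cluster 12, led by kiss1, it was at -0.56 (-1.69 to 0.67), from 10 and 23 UMIs. In the knockout habenula-gated cells 1 cell held 30 of 50 UMIs. In the GABAergic-gated cells the counts were 80 and 10 UMIs, from 16 and 4 cells.

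For nr2f1a the ratio was 1.58 in cluster 9, from 6 and 129 UMIs, against -1.80 in cluster 1, from 20 and 3 UMIs. For nr2f2 it was 0.69 in cluster 6 and 3.82 in cluster 8, against -1.71 in cluster 1. The value in cluster 8 rested on 1 control and 6 knockout UMIs.

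The row ENSDARG00000099849 stood at 2.89 in habenula-gated and 1.64 in GABAergic-gated cells, against -0.45 in granule-gated and -0.56 in glutamatergic-gated cells. The granule-gated value was -0.07 (-0.41 to 0.26) without clusters 8 and 10 and 0.12 averaged over clusters. A single cell held 87 of the 115 knockout UMIs in habenula-gated cells and 47 of the 60 in GABAergic-gated cells.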

How the results depend on the processing

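Of 44 alternative values of the log2 ratios of nr2f1a, nr2f2, ebf1b and ENSDARG00000099849 in granule-gated cells 33 stayed within the counting interval of the reported value, as did 35 of 48 for their levels and 45 of 56 for joint detection. The intervals of nr2f1b and nr2f5 are too wide for such a count. The ratio of ebf1b was 0.63 after thinning to 1000 UMIs, 0.77 with classes from joint clustering, 0.60 under a stricter gate, 0.76 without clusters 8 and 10, -0.0103 without cluster 9 and 0.20 averaged over clusters. That of nr2f1a was 0.12 without cluster 9 and 0.26 averaged over clusters. That of ENSDARG00000099849 was -0.10 with classes from joint clustering, -0.0745 without clusters 8 and 10 and 0.12 averaged over clusters. The sign thus changed without cluster 9 for ebf1b and after averaging for ENSDARG00000099849. The settings that leave out, average or work within clusters, and all those for ENSDARG00000099849, were chosen after seeing the data. The alternatives for ebf1a gave no value, since it has no entry.

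Joint detection of nr2f1a and nr2f2 was 3.92 times the number from the shares in the control after thinning, and within clusters 1.17 in control cells and 1.02 in the knockout library. For nr2f1a and ebf1b the knockout value was 2.03 after thinning and 0.935 within clusters. For nr2f2 and ebf1b thinning gave 1.98 in control cells and 1.88 in the knockout library. For ebf1b and ENSDARG00000099849 the control value was 1.72 with classes from joint clustering and 1.1 within clusters, and the knockout value 2.88 after thinning and 1.34 within clusters. Genes past 2-fold numbered 1225 of 15874 with at least 20 UMIs per gene (7.72%) and 98 of 6478 with at least 500 (1.51%). After thinning they numbered 175 of 8473 (2.06%). The set of genes compared differs between these settings. The cause of these and the other changes was not tested. No paired analysis was possible because each genotype had 1 library. The counts of nr2f1b and nr2f5 are too low for statements by cluster.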

Other observations

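Cell types with under 20 cells in a library were left out of the comparison of cell types. Of these, the microglia-gated cells were set against granule-gated cells above as a measure of stray RNA. In radial glia-gated cells, 11 of the control and 17 of the knockout library, ebf1b had 84 UMIs in 6 control cells (875 CPM) and 2 UMIs in 1 knockout cell (13.8 CPM), and 81.0% of the control UMIs were in the 2 highest cells. ENSDARG00000099849 showed 59 and 1 UMIs in the same cells. The other way round, nr2f1b had 0 UMIs in control cells and 27 UMIs in 4 knockout cells. For nr2f2 the counts were 14 and 54 UMIs (146 and 373 CPM), and for nr2f1a 6 and 20 UMIs (62.5 and 138 CPM). The intervals of nr2f1a overlapped. In the knockout cells the 2 highest cells held 66.7% of the UMIs of nr2f2 and 66.7% of those of nr2f1b.

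Small clusters of granule-gated cells also stood out. In cluster 15, led by tubb5 and dchs1a, ebf1b was at 813 CPM in 34 control cells and 538 CPM in 18 knockout cells. In cluster 10, led by cckb and ccka, ebf1b had 73 UMIs in 26 control cells (1054 CPM) and 2 UMIs in 8 knockout cells (46.6 CPM). In cluster 14, which shared gsg1l and lmx1al with cluster 6 among its leading genes, nr2f2 stood at 75.4 CPM in 47 control cells and 278 CPM in 9 knockout cells, where 1 cell held 11 of 15 UMIs.

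Among the retinoic acid genes, dhrs3b was higher in cells with ebf1b, while it was scarcely counted in cells with nr2f2. Its log2 difference between granule-gated cells with and without ebf1b was 3.02 in control cells and 2.41 in the knockout library, and between cells with and without nr2f2 it was -1.57 and -2.77. The nr2f2 values rested on fewer than 3 dhrs3b UMIs in the cells with nr2f2 of each library, so their size is poorly fixed. The gene had 96 and 35 UMIs, was named after its values were seen, and was among the leading genes of cluster 8. Its differences were not taken within clusters or bins of depth.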
